A study of Mus musculus with 12 samples.

Results

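The genes described here are 32 genes of the fat cell and of lipid storage, read from the counts of 55401 Ensembl genes in 12 samples of TC2Ras tumor. TC2Ras is a mouse prostate cancer cell line with oncogenic Ras signaling. Genes were selected by symbol, and the list was drawn up with earlier results from these tumors known, so that every count of members and every call below is a description of these tumors. All 32 members were found in the table and 31 of them carried enough counts for the test across 20818 genes. Mogat1 was not tested, and its highest level was 0.322 CPM, the unit of counts scaled to a common library size that is used throughout, in ASC replicate 2.

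The samples formed 4 groups of 3. Every mouse received low-arsenic AIN-76A chow and Milli-Q water for 2 weeks, was then implanted under the skin of both flanks with 125000 TC2Ras cells, and gave its tumors at day 21. The left and right tumors of a mouse were combined, so that 1 sample stands for 1 mouse. Control tumors held TC2Ras cells alone, and ASC tumors held TC2Ras cells mixed with 1% ASC, which were adipose-derived stromal cells carrying GFP. As300 mice drank water with 300 ppb inorganic arsenic (iAs) after implantation, and ASC_As300 mice had both 1% ASC and 300 ppb iAs, while the other mice drank water with 0 ppb iAs. The ASC came from male mice aged 8 to 12 weeks. The age and strain of the tumor-bearing mice were not given in the sources used here. The labels name stromal cells as the cell type of all 12 samples although the protocols describe excised tumors, and the samples are treated here as whole tumors.

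White fat cells store triglyceride in a lipid droplet that is coated by perilipins and enlarged by CIDE proteins. Pparg and Cebpa encode the transcription factors that switch on this program and maintain it, and the mature cell secretes hormones such as adiponectin and leptin. Fat also lies beneath flank skin, next to where subcutaneous tumors grow. Several members are not particular to fat cells: Fasn, Acly and Acaca make fatty acids in many dividing cells, Cd36 and Lpl are used by macrophages, and Fabp4 and Cd36 by capillary endothelium. In bulk tumors, fewer cells of a type and less RNA per cell cannot be told apart.

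Promoters of 3 members that varied together are printed here because each held the letters TTGCNNAA, the form of the sites bound by C/EBP proteins. The promoter of Adipoq is shown as a member with the same pattern but without these letters. The windows of Retn and Cfd, which also varied with Adipoq, did not hold these letters either and are not printed. Each sequence runs from 250 bases before the start of transcription to 50 bases after it, as given by RefSeq for GRCm38.p6, and matches to the motif are in capitals. The windows lie at chr7:79732727-79733026 on the minus strand for Plin1, chr6:113434715-113435014 on the minus strand for Cidec, chr6:29059971-29060270 on the plus strand for Lep and chr16:23146286-23146585 on the plus strand for Adipoq. Cidec had another window, chr6:113435711-113436010, at the outer start of the gene, which did not hold TTGCNNAA and is not printed.
Plin1 promoter: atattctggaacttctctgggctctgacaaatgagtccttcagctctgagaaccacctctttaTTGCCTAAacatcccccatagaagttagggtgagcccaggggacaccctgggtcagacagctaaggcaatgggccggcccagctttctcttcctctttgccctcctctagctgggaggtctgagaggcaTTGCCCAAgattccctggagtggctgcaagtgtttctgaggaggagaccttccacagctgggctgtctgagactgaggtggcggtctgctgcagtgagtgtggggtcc
Cidec promoter: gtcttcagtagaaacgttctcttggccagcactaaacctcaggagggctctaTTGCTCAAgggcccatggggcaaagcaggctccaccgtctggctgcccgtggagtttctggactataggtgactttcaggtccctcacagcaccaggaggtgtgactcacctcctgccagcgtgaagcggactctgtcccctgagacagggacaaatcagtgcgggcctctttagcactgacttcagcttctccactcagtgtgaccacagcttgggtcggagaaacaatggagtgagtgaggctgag
Lep promoter: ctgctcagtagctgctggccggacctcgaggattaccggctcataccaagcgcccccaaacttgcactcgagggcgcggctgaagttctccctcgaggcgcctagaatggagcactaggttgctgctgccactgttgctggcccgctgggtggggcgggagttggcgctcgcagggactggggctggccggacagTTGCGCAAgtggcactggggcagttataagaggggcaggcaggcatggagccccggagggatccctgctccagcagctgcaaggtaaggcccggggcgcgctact
Adipoq promoter: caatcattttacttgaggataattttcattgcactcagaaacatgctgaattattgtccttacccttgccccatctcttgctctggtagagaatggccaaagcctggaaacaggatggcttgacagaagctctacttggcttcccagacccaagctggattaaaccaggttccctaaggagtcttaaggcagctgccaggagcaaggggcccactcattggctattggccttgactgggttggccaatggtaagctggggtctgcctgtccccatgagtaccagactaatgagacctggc
RefSeq promoters were matched for 24 of the 32 members, with 31 windows because of alternative starts. TTGCNNAA, searched on both strands with N as any base, was found in 4 of the 31 windows (12.9%), those of Cidec, Lep, Plin1 and Pparg, and in 10.8% of 32851 mouse promoters of the same length. AGGTCA, the letters of 1 nuclear receptor half-site, searched on both strands, was found in 8 of the 31 windows (25.8%) of Acly, Aqp7, Cd36, Elovl6, Pparg and Ucp1, against 16.3% of all promoters. A direct repeat of AGGTCA with 1 base between the copies, the arrangement bound by PPAR with RXR, was in 0 of the 31 windows and in 13 of the 32851 promoters (0.0396%). These matches describe the letters in the windows and do not mark bound sites.

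The members differed widely between tumors, also inside a group. On the log2 CPM scale, 21 of the 32 members spanned more than 3 units between their highest and lowest tumor. Another 7 spanned 1 to 3 units, and 4 (Fasn, Acaca, Acly and Elovl6) spanned less than 1. The 21 included Mogat1, which was not tested and was at or under 12 counts in every tumor. In 8 of the 32 members at least 1 tumor held 0 counts, so that the lowest log2 value rested on the prior count of 2. The median span was 4.07 for the 31 members tested and 1.06 for all genes tested, of which 18.6% spanned more than 3. ASC replicate 2 was the highest of the 12 tumors for 27 of the 31 members tested, an order held by 11.0% of all genes tested. The exceptions were Cidea and Ucp1, highest in Control replicate 1, Acly, highest in Control replicate 2, and Elovl6, highest in ASC replicate 3. Control replicate 1 was next after the highest tumor for 24 of the 32 members.

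**Figure D1:**
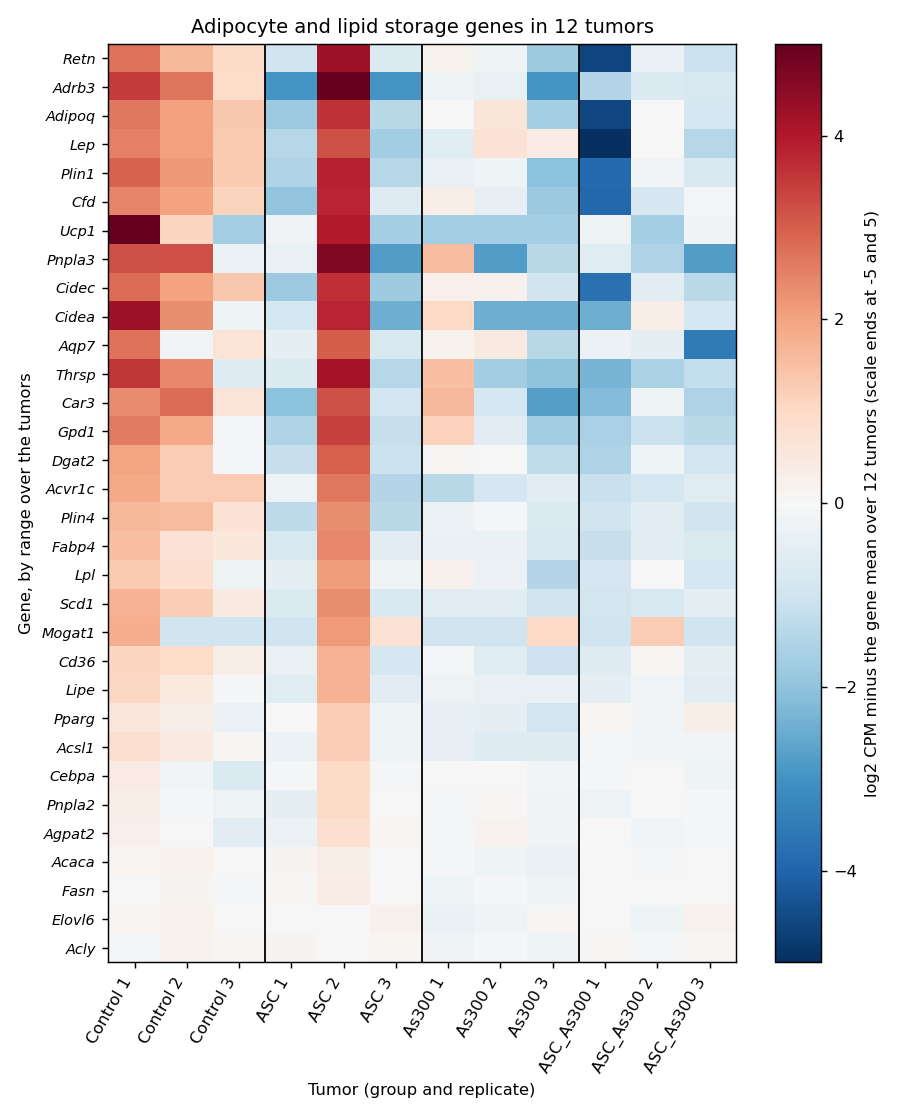
Each row is 1 of the 32 members and each column 1 of the 12 tumors, and color gives log2 CPM minus the mean of the gene over the tumors, with red above and blue below the mean. ASC replicate 2 and the Control tumors are red for most genes while ASC replicates 1 and 3 are blue, and the rows of Fasn, Acaca, Acly and Elovl6 at the bottom are nearly blank.

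The secreted products of fat cells showed this order most plainly. Adipoq (ENSMUSG00000022878, chr16:23146536-23158028, plus strand of GRCm38) encodes adiponectin, a hormone made almost only by fat cells. Its level was 27.3, 18.5 and 11.2 CPM in Control replicates 1, 2 and 3, 1.21, 54.9 and 1.65 CPM in ASC, 4.38, 6.81 and 1.38 CPM in As300, and 0.149, 4.52 and 2.39 CPM in ASC_As300. All 6 tumors with iAs were below all 3 Control tumors, and the ASC tumors lay on both sides of them. The means were 19.0 ± 8.06 CPM in Control, 19.3 ± 30.9 in ASC, 4.19 ± 2.72 in As300 and 2.36 ± 2.19 in ASC_As300 (SD, n = 3 each). In ASC the SD was larger than the mean, which rested on replicate 2.

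Leptin, the hormone that reports fat stores to the brain, was encoded by Lep at 7.42, 5.33 and 3.21 CPM in Control, 0.445, 11.7 and 0.350 in ASC, 0.801, 2.09 and 1.69 in As300, and 0, 1.22 and 0.435 in ASC_As300. Retn encodes resistin, another product of mouse fat cells, and stood at 6.53, 3.11 and 1.89 CPM in Control, 0.466, 18.7 and 0.559 in ASC, 1.10, 0.818 and 0.247 in As300, and 0, 0.751 and 0.435 in ASC_As300. Cfd encodes adipsin, a complement protease, and was at 92.7, 67.5 and 36.8 CPM in Control, 4.25, 236.9 and 10.7 in ASC, 21.3, 12.8 and 4.70 in As300, and 1.08, 9.38 and 15.9 in ASC_As300. In all 3 genes the tumors with iAs did not overlap with Control, and ASC_As300 replicate 1 was the lowest of the 12 tumors.

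Genes of the lipid droplet coat followed the same order. Plin1, the perilipin that guards the droplet against lipases, was at 21.5, 12.6 and 6.90 CPM in Control, 0.951, 40.5 and 1.00 in ASC, 2.13, 2.39 and 0.636 in As300, and 0.149, 2.47 and 1.60 in ASC_As300. Cidec, which fuses droplets into the large droplet of white fat cells, was at 23.0, 13.3 and 8.37 CPM in Control, 0.891, 41.3 and 0.932 in ASC, 3.95, 3.76 and 1.62 in As300, and 0.205, 2.17 and 1.27 in ASC_As300. Plin4, a perilipin of small droplets, was at 39.7, 37.7 and 20.9 CPM in Control, 5.08, 63.6 and 4.73 in ASC, 10.3, 12.04 and 7.59 in As300, and 6.35, 8.69 and 6.31 in ASC_As300. For these genes too, every tumor with iAs and both ASC replicates 1 and 3 were below all Control tumors.

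**Figure D2:**
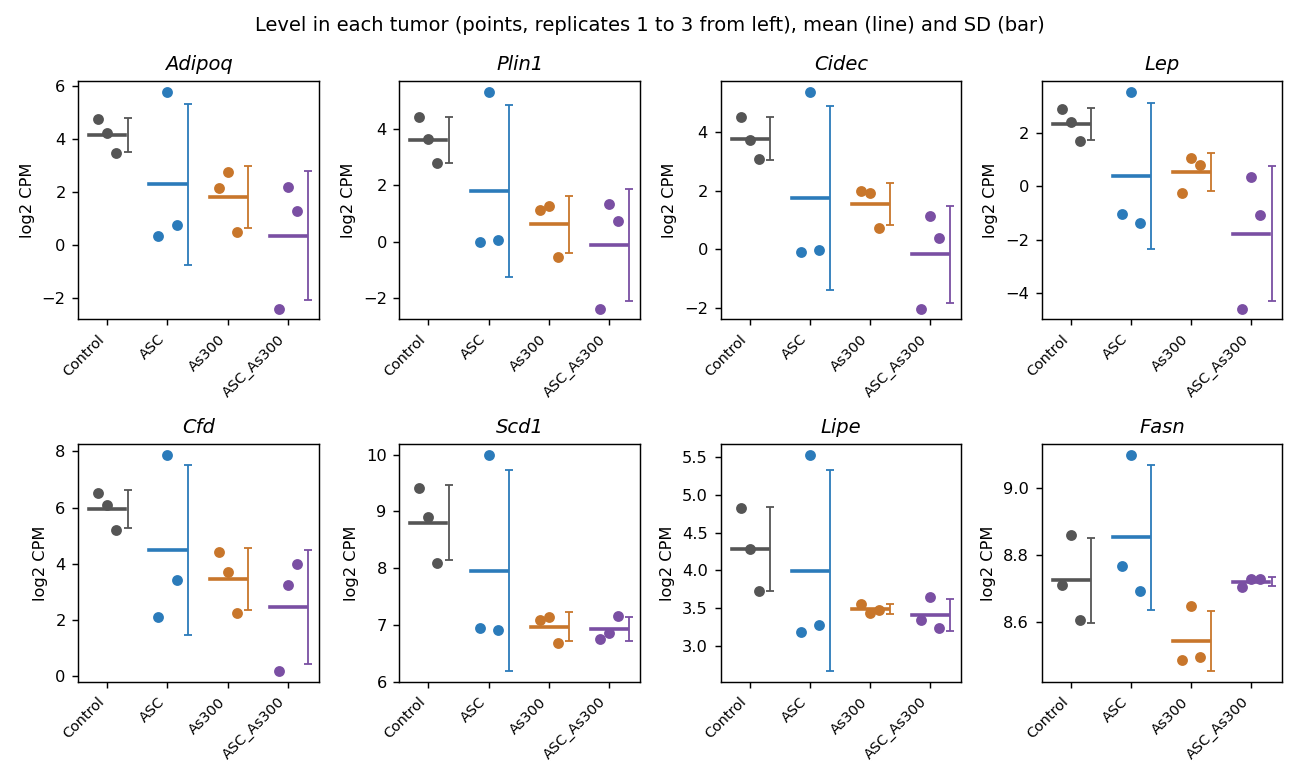
Panels show log2 CPM of Adipoq, Plin1, Cidec, Lep, Cfd, Scd1, Lipe and Fasn in each tumor, with a line at the group mean and a bar of 1 SD on each side (n = 3), and each panel has its own axis. ASC replicate 2 stands above the Control tumors in all 8 panels, and the Fasn panel spans less than 1 log2 unit.

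Cidea and Ucp1, a droplet protein and the uncoupling protein of brown and beige fat, had their highest level in another tumor. Ucp1 was at 7.69 CPM in Control replicate 1, 2.12 in ASC replicate 2 and 0.249 in Control replicate 2, and was at or under 4 counts in each of the other 9 tumors. Cidea was at 4.17, 1.09 and 0.152 CPM in Control, 0.0810, 3.14 and 0 in ASC, 0.400, 0 and 0 in As300, and 0, 0.237 and 0.0791 in ASC_As300. A level of 12 counts, taken as the floor, came to 0.212 to 0.322 CPM depending on the tumor. All 3 As300 tumors held 0 counts of Ucp1, so that the mean of Control, 2.65 CPM, was at least 10.48-fold higher than a floor of 12 counts per tumor, although this mean came almost wholly from 1 tumor.

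The receptors were scarce transcripts. Adrb3, the adrenergic receptor through which fat cells are told to release fatty acids, was at 3.55, 2.01 and 0.564 CPM in Control, 0, 12.01 and 0 in ASC, 0.225, 0.204 and 0 in As300, and 0.0744, 0.158 and 0.138 in ASC_As300. All 6 tumors with iAs were at or under 10 counts. Acvr1c encodes the activin-type receptor ALK7, which is concentrated in fat cells, and ran from 0.844 to 1.32 CPM in Control, while the 6 tumors with iAs reached 0.212 CPM at most and ASC replicate 2 stood at 2.22 CPM.

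Lipolysis and triglyceride synthesis held both steep and flat members. Pnpla3, a lipase-like protein of the droplet, was at 2.60, 2.67 and 0.195 CPM in Control, 0.182, 7.34 and 0 in ASC, 0.801, 0 and 0.0706 in As300, and 0.149, 0.0593 and 0 in ASC_As300. Aqp7, the channel that lets glycerol out of fat cells, was at 3.16, 0.403 and 0.738 CPM in Control, 0.304, 3.89 and 0.233 in ASC, 0.500, 0.613 and 0.141 in As300, and 0.354, 0.316 and 0 in ASC_As300. Both were at or near the floor in most tumors, and for both As300 overlapped with Control.

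Lipe encodes hormone-sensitive lipase and ran from 9.01 to 46.3 CPM, with all 6 tumors with iAs between 9.42 and 12.5 CPM and below the lowest Control tumor at 13.2 CPM. Pnpla2, the lipase that starts the breakdown of triglyceride, ran only from 38.3 to 101.5 CPM, and its As300 and ASC_As300 tumors lay inside the range of Control. Gpd1, which supplies the glycerol backbone, ran from 1.54 to 56.7 CPM, and Dgat2, which adds the last fatty acid, from 1.79 to 42.3 CPM. In both genes the 3 ASC_As300 tumors were below Control, while As300 replicate 1 and, for Dgat2, replicate 2 were not. Agpat2, an earlier enzyme of the same pathway, ran from 15.7 to 39.0 CPM with its lowest value in Control replicate 3.

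Fatty acid synthesis separated into 2 kinds of members. Scd1, the desaturase that makes oleic acid, was at 678, 478 and 275 CPM in Control, 124, 1028 and 121 in ASC, 136, 141 and 102 in As300, and 108, 116 and 143 in ASC_As300, so that no tumor with iAs reached a Control tumor. Thrsp, a lipogenic protein of fat and liver, was at 14.9, 6.62 and 0.759 CPM in Control, 0.729, 21.9 and 0.420 in ASC, 3.53, 0.327 and 0.265 in As300, and 0.205, 0.375 and 0.495 in ASC_As300, with As300 replicate 1 above Control replicate 3. The enzymes that make palmitate and the elongase Elovl6 were flat by comparison. Fasn ran from 359 to 549 CPM, Acly from 289 to 376, Acaca from 66.5 to 106.8 and Elovl6 from 59.5 to 88.0.

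Genes of lipid uptake lay between these extremes. Fabp4, which carries fatty acids inside the cell, was at 189.9, 111.6 and 98.1 CPM in Control, 38.8, 360.0 and 46.1 in ASC, 52.9, 53.6 and 39.5 in As300, and 30.5, 46.1 and 41.3 in ASC_As300, with no overlap between Control and the tumors with iAs. Acsl1, which activates fatty acids, was at 45.4, 34.8 and 26.2 CPM in Control, 20.7, 59.7 and 21.3 in ASC, 18.9, 16.3 and 16.0 in As300 and 23.8, 23.1 and 22.7 in ASC_As300, and again Control did not overlap with the tumors with iAs. Cd36, a fatty acid receptor, ran from 11.3 to 78.4 CPM and also lay lower in every tumor with iAs than in Control, whereas Lpl, the lipase that frees fatty acids from lipoproteins, ran from 13.7 to 161.5 CPM with overlap.

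The regulators spanned less than the secreted and droplet coat genes, by 2.20 log2 units for Pparg and 1.66 for Cebpa. Pparg was at 7.15, 5.85 and 3.86 CPM in Control, 4.88, 11.2 and 3.96 in ASC, 3.55, 3.39 and 2.42 in As300, and 5.10, 4.35 and 5.80 in ASC_As300. Only As300 lay below all Control tumors in this gene, and ASC_As300 did not. Cebpa ran from 10.8 CPM in Control replicate 3 to 34.4 CPM in ASC replicate 2, and its means of 16.8 ± 6.22 CPM in Control, 17.2 ± 1.06 in As300 and 16.6 ± 1.45 in ASC_As300 (SD, n = 3) differed by less than their spread.

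Per kilobase of exon, the members with the highest mean level over the 12 tumors were Acly at 63.9 CPM per kb, Scd1 at 58.8, Cfd at 46.5 and Fasn at 38.5. Adipoq stood at 8.12 CPM per kb, Plin1 at 1.66 and Pparg at 1.74. Mogat1, an enzyme of triglyceride synthesis, and Acvr1c were lowest at 0.0505 and 0.0588 CPM per kb.

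In the 4 tumors with the highest levels of Adipoq, the 3 Control tumors and ASC replicate 2, several members kept a nearly fixed proportion to Adipoq counts, and those named here were chosen after these proportions were seen. Plin1 was at 0.615 to 0.786 counts per Adipoq count, Cidec at 0.716 to 0.842, Lep at 0.213 to 0.288, Cfd at 3.28 to 4.31, Lpl at 2.86 to 3.54 and Scd1 at 18.7 to 25.8, while Adipoq itself ran from 11.2 to 54.9 CPM in them. Fasn did not follow, at 9.996 to 34.8 counts per Adipoq count, nor did Acly at 6.10 to 31.8. Steep members that did not follow included Thrsp at 0.0677 to 0.545, Cidea at 0.0135 to 0.153, Pnpla3 at 0.0174 to 0.144, Gpd1 at 0.443 to 1.17 and Car3 at 3.68 to 10.04 counts per Adipoq count. Adrb3 at 0.0503 to 0.2185, Aqp7 at 0.0218 to 0.1157 and Ucp1 at 0 to 0.2814 did not follow either, and Retn ran from 0.168 to 0.3395. Over the other 8 tumors the proportions were wider, up to 727 for Scd1 and 141.6 for Lpl in ASC_As300 replicate 1, where Adipoq was lowest. Among members, Plin1 was closest to Adipoq over the 12 tumors, with a root mean square difference of 0.381 between their mean-centred log2 CPM, followed by Cidec at 0.419, Retn at 0.481, Cfd at 0.552 and Lep at 0.687.

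Outside the list, the 12 tested genes with the pattern nearest to Adipoq, by the same measure over the 12 tumors, were Pck1, Lgals12, Slc22a3, Slc7a10, Hp, A530016L24Rik, Ankef1, Sncg, Lctl, Cdo1, G0s2 and Glb1l2, at differences of 0.809 to 1.13. Pck1, the glyceroneogenic enzyme of fat and the gluconeogenic enzyme of liver, was at 36.2, 16.3 and 9.76 CPM in Control, 0.709, 60.5 and 1.54 in ASC, 1.08, 3.01 and 0.318 in As300, and 0.0745, 1.15 and 1.19 in ASC_As300. Hp, haptoglobin, was the most abundant of the 12 at 6.83 to 313.5 CPM. Pck1, Lgals12, Sncg and G0s2 were also in the list of other white fat cell genes described below.

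The spread inside each group was wider for the members than for other genes. In ASC the median SD of log2 CPM was 2.13 for the 31 members tested and 0.261 for all genes tested, and the SD was over 1 in 22 members against 11.7% of genes. The corresponding medians were 0.642 and 0.217 in Control, 0.484 and 0.226 in As300, and 0.366 and 0.190 in ASC_As300. The 2 other ASC tumors lay far from replicate 2: replicates 1 and 3 were below all 3 Control tumors for 21 of the 31 members, an order held by 14.2% of all genes tested.

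The comparison of ASC with Control asks what 1% ASC changed in tumors without iAs. Here 10 of the 31 members had a fitted log2 fold change below 0, with a median of 0.05 against -0.0044 for all genes tested and a range from -1.87 to 0.96. The quasi-likelihood test of edgeR called 0 members at an adjusted p under 0.05 and at least 1.5-fold, where 0.721% of all genes were called in either direction. At an unadjusted p under 0.05 with the same fold it named 0 members (4.89% of all genes), and DESeq2 called 0. No member had all 3 ASC tumors above all Control tumors (9.94% of genes) or all below them (9.01%). Without ASC replicate 2 the median became -2.43, and Plin4, Fabp4 and Scd1 were called lower, with log2 fold changes of -2.74, -1.65 and -1.96 and adjusted p-values of 0.00191, 0.0215 and 0.0127, where 0.0507% of all genes were called lower. Leaving out Control replicate 1 as well, a choice made after the values were seen, gave calls for the same 3 genes. In that fit 7 of 21366 genes were called lower.

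The comparison of As300 with Control asks what 300 ppb iAs changed in tumors without added ASC. Of the 31 members, 29 had a fitted log2 fold change below 0, with a median of -1.77 against -0.0278 for all genes (-1.14 without Control replicate 1), and in 17 all 3 As300 tumors were below all 3 Control tumors, as they were in 15.4% of all genes. No member passed: edgeR called 0, where 1.06% of all genes were called in either direction (220 genes, 0 without any 1 of the Control tumors and 28 without ASC replicate 2), and the smallest adjusted p was 0.0641, for Acaca, which was at 91.8 ± 5.598 CPM in Control and 73.0 ± 6.183 CPM in As300 (SD, n = 3), a difference under 1.5-fold. At an unadjusted p under 0.05 with at least 1.5-fold, 9 members were lower (3.67% of all genes). DESeq2 called 1 member lower, Ucp1, where it called 321 of 33928 genes lower. Ucp1 was at 0 counts in all 3 As300 tumors, and its Control mean came almost wholly from replicate 1. Adipoq had a log2 fold change of -2.19 ± 1.26 (SE) with an adjusted p of 0.323, and Plin1 one of -3.00 ± 1.28 with an adjusted p of 0.175, both from edgeR.

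Some calls appeared in smaller fits. A fit of only the 6 tumors compared called 5 members lower in As300 (Plin1, Plin4, Fabp4, Acsl1 and Scd1), with log2 fold changes from -2.97 to -1.04 and adjusted p-values of 0.0418 to 0.0471, where 0.176% of genes were called lower. The fit of all tumors but ASC replicate 2 called 4 of these lower, Plin4, Fabp4, Acsl1 and Scd1, each with an adjusted p of 0.0496, where 0.0415% of genes were. With neither ASC replicate 2 nor Control replicate 1, 0 members and 0 of 21366 genes were called in As300, and the median was -1.16. With ASC replicate 2 kept, the fit without ASC replicate 3 called Acvr1c lower, at an adjusted p of 0.0486 from edgeR. In that fit 165 of 21813 genes were called lower. Acvr1c was at or under 12 counts in every As300 tumor and entered the fit through the Control and ASC tumors.

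The comparison of ASC_As300 with Control sets the combination against tumors with neither. All 31 members had a fitted log2 fold change below 0, with a median of -2.20 against -0.0234 for all genes, and of -1.55 without Control replicate 1. With all 12 tumors the median was -2.11 with Acvr1c, Adrb3, Cidea, Pnpla3 and Ucp1, which were at or under 12 counts in all 3 ASC_As300 tumors, set at that floor. In 21 members all 3 ASC_As300 tumors were below all 3 Control tumors (12.2% of genes), and in 15 members all 6 tumors with iAs were (7.62% of genes). Still edgeR called 0 members, where 0.807% of genes were called in either direction, and DESeq2 called 0, while 16 members were lower at an unadjusted p under 0.05 with at least 1.5-fold (2.29% of genes). The smallest adjusted p was 0.209, for Scd1, at a log2 fold change of -1.96 ± 0.67 (SE).

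The fit of only these 6 tumors called 8 members lower in ASC_As300 (0.213% of genes were called lower): Plin4, Cidec, Fabp4, Gpd1, Adrb3, Scd1, Car3 and Acvr1c. Of these, Adrb3 and Acvr1c were at or under 12 counts in every ASC_As300 tumor and entered the fit through Control. For Plin4 the log2 fold change was -2.21 with an adjusted p of 0.0110, and for Cidec it was -3.62 with an adjusted p of 0.0478. The fit without ASC replicate 2 called Plin4, Cidec, Fabp4 and Scd1 lower (0.0691% of genes). Without Control replicate 1 as well, Plin4, Fabp4 and Scd1 were called, with edgeR adjusted p-values of 0.00343, 0.00270 and 0.00329. That fit was chosen after the values were seen, and 7 of 21366 genes were called lower in it. The 3 comparisons with Control share the same Control tumors, so that their values stand side by side and are not independent of each other.

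**Figure D3:**
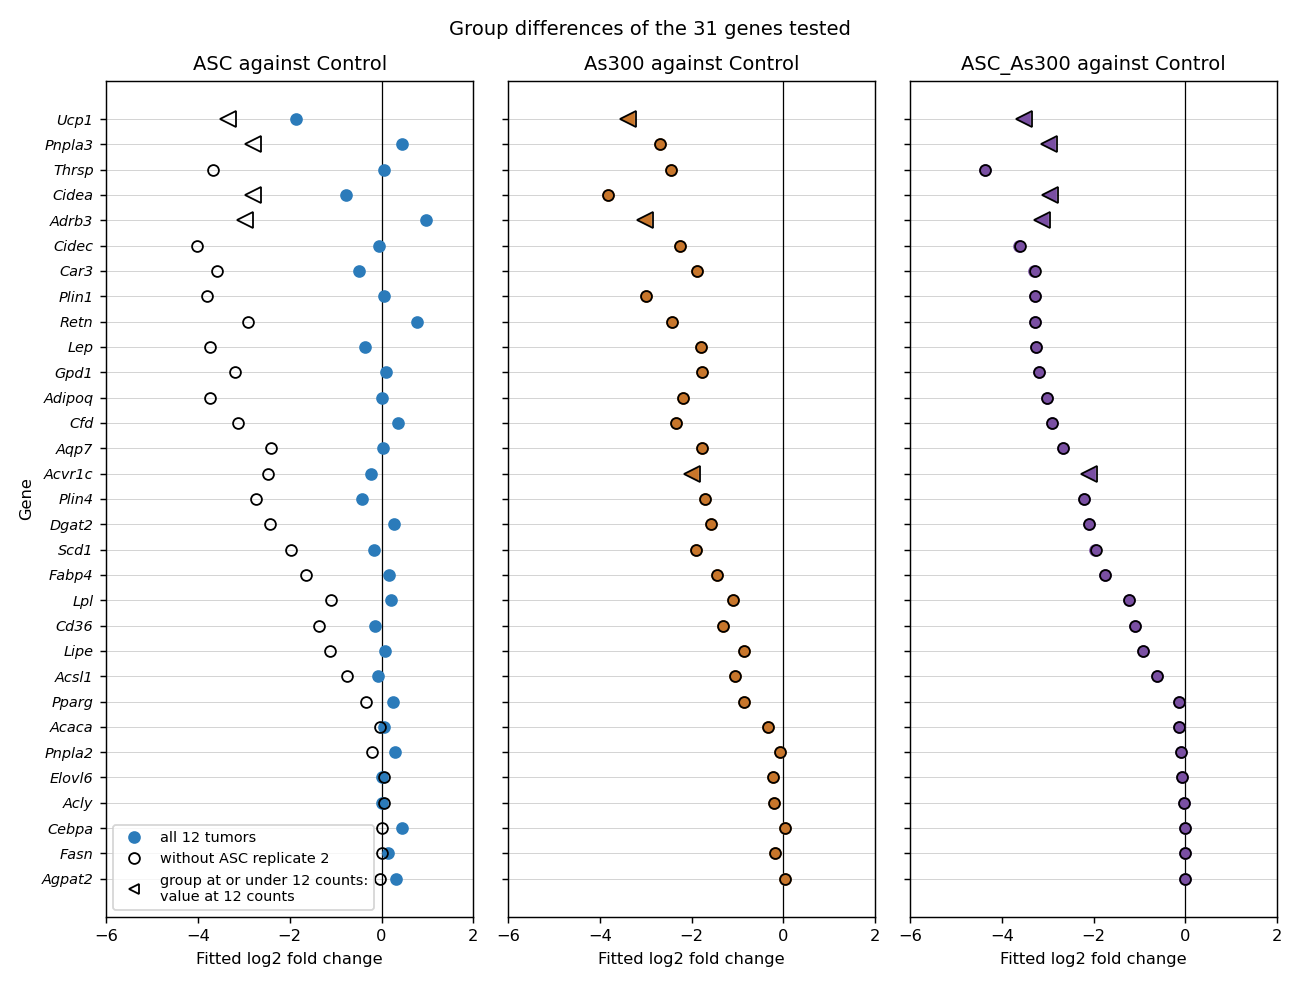
Points give the fitted log2 fold change of each of the 31 members tested against Control, filled for all 12 tumors and open without ASC replicate 2, and triangles give the value at 12 counts per tumor where the group was at or under 12 counts in every tumor. Leaving out ASC replicate 2 moves the ASC median from 0.05 to -2.43. The As300 and ASC_As300 medians stay within 0.01 of their values, which was given in advance, because these comparisons hold no ASC tumor.

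The comparison of ASC_As300 with ASC asks what iAs changed where ASC were present, and it turned on ASC replicate 2. All 31 members had a fitted log2 fold change below 0, with a median of -2.36, yet edgeR called 0 members and 0 genes of the 20818 (0.0%), and DESeq2 called 0 members. At an unadjusted p under 0.05 with at least 1.5-fold, 17 members were lower (1.45% of genes). Only Acaca, at 85.0, 81.2 and 85.2 CPM in ASC_As300 and 93.7, 106.8 and 86.4 CPM in ASC, had all 3 ASC_As300 tumors below all 3 ASC tumors (3.91% of genes). Without ASC replicate 2 the median over the members was 0.10, and the log2 fold change of Adipoq went from -3.03 to 0.71.

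The comparison of ASC_As300 with As300 asks what ASC changed under iAs. The median log2 fold change over the members was -0.16, with 22 of 31 below 0, and edgeR called 0 members (0.855% of genes in either direction), 0 at an unadjusted p under 0.05 with at least 1.5-fold (5.47% of genes), and DESeq2 0. Pparg was at 5.08 ± 0.726 CPM in ASC_As300 and 3.12 ± 0.614 in As300 (SD, n = 3) without overlap. Its adjusted p from edgeR was 0.564. Acsl1, Fasn, Acaca and Acly were also higher in every ASC_As300 tumor than in every As300 tumor. The share of all genes with this order was not counted. The smallest adjusted p from edgeR was 0.452, for Acly. The interaction, which tests whether the change with iAs differed between tumors with and without ASC, was called for 0 members and 0 genes (0.0%) by edgeR, for 0 members at an unadjusted p under 0.05 with at least 1.5-fold (5.82% of genes), and for 0 members by DESeq2. Its median over the members was -0.35, and 1.77 without ASC replicate 2.

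Marker genes of other tissues that could enter a dissected tumor were summed per tumor, leaving out members. The 12 genes of skeletal muscle came to 2029 CPM in Control replicate 2 and 2036 CPM in As300 replicate 1, to 422 CPM in ASC replicate 2, and to 5.89 CPM in Control replicate 1, where Myh4 was at 0. The 10 genes of lymph node B cells came to 256.3 CPM in Control replicate 1 and 26.7 CPM in ASC replicate 2, and to 8.03 to 13.0 CPM in the other 10 tumors. The 12 keratinocyte genes stayed at 8.61 to 19.9 CPM in all tumors. Control replicate 1 and ASC replicate 2, the tumors highest in most members, were thus also the highest in B cell markers, whereas muscle markers were highest in other tumors. Their part in the levels of the members was not tested.

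Car3, a carbonic anhydrase of fat cells that is also made in muscle, was at 138.2, 185.8 and 41.3 CPM in Control, 6.46, 240.2 and 13.9 in ASC, 81.3, 14.6 and 3.97 in As300, and 5.86, 22.5 and 9.02 in ASC_As300. Its high values in Control replicate 2 and As300 replicate 1 fell on the tumors with the most muscle markers, whereas Control replicate 1, at 138.2 CPM, had few of them, and the part of muscle in them was not tested.

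**Figure D4:**
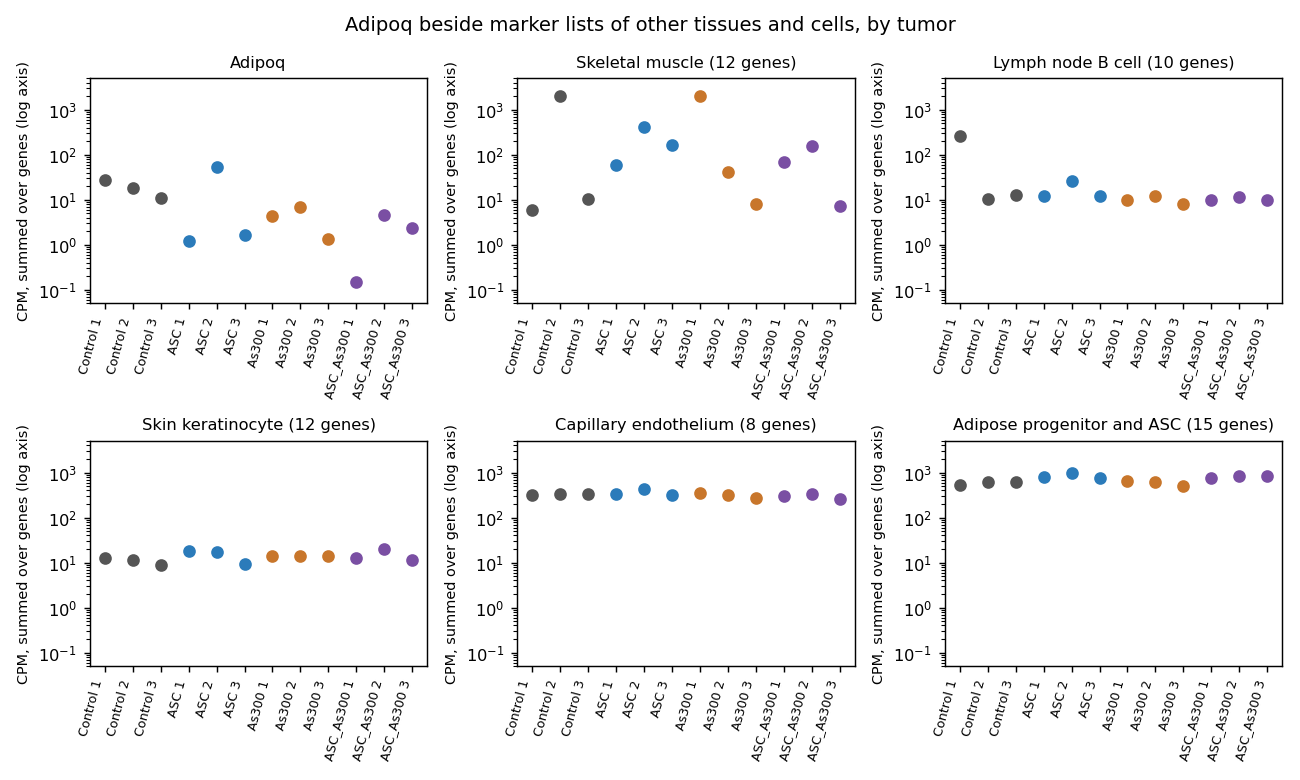
Panels give the CPM of Adipoq and the summed CPM of 5 marker lists, without members, in each tumor on a log axis, with the number of genes summed in each title. Skeletal muscle peaks in Control replicate 2 and As300 replicate 1, B cell markers in Control replicate 1, and the keratinocyte, endothelium and progenitor sums vary little beside Adipoq.

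Other genes of fat cells were taken from a list of 36 that did not include the members. As a sum they spanned 1499 to 1787 CPM over the 12 tumors, with Control replicate 1 lowest and ASC replicate 2 highest. The sum was led by Cav1 at 344.5 to 419.2 CPM, Plin2 at 168.0 to 283.7 and Angptl4 at 143.2 to 252.5, which many cell types use. In each of the 6 comparisons edgeR called 0 of the 36. At an unadjusted p under 0.05, 10 were lower and 2 higher in As300 against Control, where 13.0% of all genes were lower and 11.2% higher. In ASC_As300 against Control 6 were lower and 2 higher (6.5% and 8.7% of all genes), and in ASC_As300 against ASC 10 were lower and 0 higher (1.74% and 1.47%). The medians of the first and second of these comparisons were -0.35 and -0.55 on the log2 scale. The 11 genes of brown and beige fat outside the members summed to 4.89 to 24.7 CPM, with Control replicate 2 highest, and 0 were called.

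The 12 genes of fatty acid oxidation came to 721 to 842 CPM, ASC replicate 2 ranked 11 of 12, and of the 11 tested 0 were called in any comparison by edgeR. At an unadjusted p under 0.05, 2 were lower and 2 higher in As300, and 3 were lower and 0 higher in ASC, both against Control, where 6.87% of all genes were lower and 8.55% higher in ASC. The sum was 729.6 to 742.5 CPM in ASC and 783.2 to 803.1 CPM in Control. Among the abundant genes, Hadha was at 111.9 to 126.9 CPM and Cpt1a at 78.5 to 148.1.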

How the data were processed

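RNA from 12 TC2Ras tumor samples, 3 in each of 4 groups, was sequenced by the authors after poly(A) selection with a stranded kit. Per the labels and methods, reads were trimmed with cutadapt 1.1.0, aligned with HISAT2 2.0 and quantified with StringTie 1.3.4. The step that made the deposited counts, the genome build and the annotation were not given in the sources used here. The deposited counts are whole numbers without normalization, with totals of 39157647 to 55168642 per tumor. Low counts were more frequent at 4 than at 3 or 5, so that the counts behind 1 read pair are unknown and 12 counts were taken as a floor, which covers counting error only.

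Symbols and exon lengths came from GENCODE M21 on GRCm38 and named 55141 of 55401 genes. The members and gene lists were chosen with earlier results of these data known. Genes were filtered with filterByExpr by group and scaled by TMM (factors 0.9535 to 1.054), and a model of group means was applied to the 12 tumors together with the quasi-likelihood F test of edgeR 4.0.16 in R 4.3.3, with Benjamini-Hochberg adjustment over 20818 genes (common dispersion 0.1081). CPM use the TMM-scaled totals, and log2 CPM a prior count of 2. A call needs an adjusted p under 0.05 and at least 1.5-fold. With 3 tumors in each of 2 groups, the smallest p of an exact permutation test is 0.1.

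Values in every tumor are given for the 12 members with the largest span on the log2 scale, and for Plin4, Fabp4, Acsl1, Scd1, Pparg and Car3, which were chosen after their values were seen. From each marker list up to 3 genes with the highest mean CPM are named, and 12 genes most like Adipoq by root mean square difference. Alternatives were DESeq2 1.42.0 (Wald test), DESeq2 size factors, testing every gene with a count, a minimum of 10 counts in each tumor, no fold minimum, unadjusted p-values, rows summed by symbol, counts divided by 4, only the 6 tumors compared, a replicate block, and leaving out each tumor. The tests were tried on simulated data first.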

Additional observations from a re-analysis of the deposited data

How the results depend on the processing

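The count of members called was 0 in all 6 comparisons with edgeR on all 12 tumors. It became 9 in As300, 16 in ASC_As300 (both against Control) and 17 in ASC_As300 against ASC with unadjusted p-values, 1 in As300 with the DESeq2 Wald test, and 5 in As300 and 8 in ASC_As300 with only the 6 tumors compared. Leaving out 1 tumor at a time gave 0 to 3 in ASC, 0 to 4 in As300 and 0 to 4 in ASC_As300, with the highest counts without ASC replicate 2, and 1 in As300 (Acvr1c) without ASC replicate 3. With neither ASC replicate 2 nor Control replicate 1, an alternative chosen after seeing the data, the counts were 3 in ASC, 0 in As300 and 3 in ASC_As300. The other alternatives left the counts at 0. Over all alternatives and comparisons, 3784 log2 fold changes of single members were computed. Of these, 3620 moved by less than the spread between replicates and 164 by more, and 257 changed sign. This spread was wide because of ASC replicate 2, with an SD of 3.03 for Adipoq in ASC, so that large moves could stay below it. No member was called in the fit of all tumors, so that no called value could change sign. With the replicate block the counts were 0 in each comparison and the medians on the log2 scale were -0.41 in ASC, -1.72 in As300 and -2.19 in ASC_As300. The deviations of same-numbered tumors correlated at -0.124 to 0.172. Tumors with different numbers were not correlated for comparison, so that these values cannot decide whether the numbers stand for a shared batch. What the depth limits is Mogat1, Ucp1, Cidea, Pnpla3, Adrb3 and Acvr1c, which were at or under 12 counts in most tumors.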

Other observations

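Ly6a, which encodes the stem cell antigen Sca-1 found on adipose progenitors, separated the tumors by added ASC and not by the level of the fat cell genes. It was at 73.3, 74.7 and 53.5 CPM in Control, 195.9, 262.9 and 220.8 in ASC, 97.9, 60.9 and 63.5 in As300, and 201.3, 211.1 and 265.6 in ASC_As300. By edgeR it was called higher in ASC against Control (log2 fold change 1.75, adjusted p = 0.000781), in ASC_As300 against Control (1.75, adjusted p = 0.000737) and in ASC_As300 against As300 (1.61, adjusted p = 0.00108), and it was higher in 3 of 3 tumors each time. These calls held in each fit that left out 1 tumor. It was the only 1 of 15 progenitor genes called in these comparisons. Cd34 and Pdgfra, the other abundant genes of that list, ran from 78.5 to 143.2 CPM and from 63.7 to 127.3 CPM. The other 14 genes summed to 554.9 to 699.6 CPM in ASC and 557.0 to 646.9 CPM in ASC_As300, and without ASC to 465.1 to 563.4 CPM for Control and 428.7 to 562.5 CPM for As300, so that the tumors with and without ASC overlapped in this sum. The paper reports that few ASC with GFP were detected in the tumors at late times. It also reports higher transcripts of interferon gamma and its effector IRF1 in ASC and ASC_As300 tumors. Which cells made Ly6a, and what raised it, was not tested.

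Macrophage genes outside the members came to 1679 to 2474 CPM, led by Apoe, and capillary endothelium genes to 255 to 422 CPM, led by Aqp1. ASC replicate 2 was highest in both sums, and 0 genes of either list were called by edgeR in any comparison. Of 10 Schwann cell genes, Mbp, myelin basic protein, was called higher in As300 against Control by edgeR (50.7, 40.6 and 36.4 CPM against 13.5, 22.9 and 18.3, log2 fold change 1.22, adjusted p = 0.0370) and lower in ASC_As300 against As300 (-1.06, adjusted p = 0.0112). When 1 of the 12 tumors was left out, the call against Control was kept in 4 of the 12 fits and lost without any 1 Control or ASC_As300 tumor, among others, with edgeR adjusted p-values of 0.0137 to 0.154, and the call against As300 was kept in 9. Of 7 epithelial and tumor genes tested, Krt8 was called lower in ASC_As300 against Control by edgeR (31.1, 30.8 and 24.1 CPM against 336.9, 62.1 and 89.9, log2 fold change -2.51, adjusted p = 0.0309), and its Control mean rested on replicate 1. The Krt8 call was lost without any 1 ASC_As300 tumor, and the highest edgeR adjusted p was 0.176. Sebaceous gland genes outside the members summed to 335 to 438 CPM, with 0 called.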
